A study of Mus musculus with 8 samples.

Results

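The genes described here are the 2 nuclear receptors that bind glucocorticoids, 1 enzyme that makes their ligand and 7 genes known to respond to it, 10 of the 51826 gene identifiers of the count table. They were found by matching the gene symbols Nr3c1, Nr3c2, Hsd11b1, Fkbp5, Tsc22d3, Zbtb16, Klf9, Klf15, Arrdc2 and Cebpb to Ensembl identifiers, and all 10 were present and passed the filter on low counts that left 16623 genes to be tested. The set was chosen because Fkbp5 and Arrdc2 lay lower in adult knockout than in adult wild-type libraries, so the adult genotype difference is given as a description, with no test. The e13.5 libraries took no part in that choice, and the age difference averaged over genotypes is orthogonal to that contrast in the fit, so both were tested.

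The libraries came from mouse heart, labelled as cardiomyocytes of strain C57BL/6, in 4 groups of 2. KO adult and KO e13.5 libraries were from animals of genotype LncSync-/-, which lack the long noncoding RNA LncSync on both alleles. WT adult and WT e13.5 libraries were from wild-type animals, with e13.5 standing for the embryonic day. The sources used here do not give the age or sex of the adults, the hour of collection or the way cells were isolated. They also leave unsaid if the libraries within a group are from different animals, and the p-values therefore measure library-to-library spread, which may be technical. No gene of the table is named LncSync, so the loss of its transcript was not checked.

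Glucocorticoids, in mice mainly corticosterone, cross the cell membrane and bind the glucocorticoid receptor, which waits in the cytoplasm in a complex with the chaperone Hsp90. The bound receptor moves to the nucleus and activates or represses genes, often through a pair of inverted short sites called a glucocorticoid response element. The related mineralocorticoid receptor binds the same hormones and the same element. In the heart these hormones are known for the late fetal maturation of cardiomyocytes and for control of fuel use in adults, and in the mouse they rise late in gestation and later follow the time of day.

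Libraries held 16495084 to 20395600 counts, and values below are CPM (counts scaled to the depth of the library) adjusted by the trimmed mean of M-values, on which 1 count in a library was worth 0.0344 to 0.0689 CPM. The 12 cardiomyocyte markers, among them Myh6 and Tnnt2, summed to 73492 and 88162 CPM in KO adults, 91959 and 89766 CPM in WT adults, 41290 and 16725 CPM in KO e13.5 and 35892 and 26724 CPM in WT e13.5. Library 2 of each genotype at e13.5 had the higher sum of the 10 fibroblast markers, with 851 and 3887 CPM in KO and 1294 and 3927 CPM in WT. Gsn went the other way, at 430 and 221 CPM in KO and 398 and 214 CPM in WT. In WT so did Dcn (170 and 119 CPM) and Tcf21 (12.4 and 11.7 CPM), and the others were higher in library 2. Erythroid markers took 160002 and 22800 CPM in KO e13.5 and 43787 and 20137 CPM in WT e13.5. In bulk libraries such as these, fewer cells of a type and less RNA per cell cannot be told apart. The smallest effects the counts can resolve are set by the spread between 2 libraries, and counting intervals and floors given below cover counting error alone.

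The stretches before the transcription start are shown for Fkbp5 and Arrdc2, which had the adult difference that led to the set, and for Klf15 and Tsc22d3, which held most of the motif matches. Each is the 250 bases before a RefSeq start (GRCm38.p6), written 5′ to 3′ on the strand of the gene. Capitals mark the single glucocorticoid receptor site TGTTCT (or AGAACA on the other strand) and the E-box CACGTG, a motif known to bind clock factors, which reads the same on both strands. The E-box was added after the values of the clock genes had been seen.
Fkbp5, chr17:28486150-28486399, minus strand: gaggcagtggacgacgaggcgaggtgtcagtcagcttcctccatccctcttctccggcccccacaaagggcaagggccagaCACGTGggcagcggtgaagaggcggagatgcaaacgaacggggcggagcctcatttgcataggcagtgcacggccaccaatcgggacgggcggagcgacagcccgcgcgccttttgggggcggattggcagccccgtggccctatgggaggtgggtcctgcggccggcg
Arrdc2, chr8:70839721-70839970, minus strand: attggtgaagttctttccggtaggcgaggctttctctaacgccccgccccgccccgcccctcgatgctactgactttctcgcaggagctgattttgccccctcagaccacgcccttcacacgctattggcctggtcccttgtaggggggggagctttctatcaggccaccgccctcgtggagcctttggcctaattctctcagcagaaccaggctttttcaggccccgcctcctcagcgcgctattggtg
Klf15, chr6:90462326-90462575, plus strand: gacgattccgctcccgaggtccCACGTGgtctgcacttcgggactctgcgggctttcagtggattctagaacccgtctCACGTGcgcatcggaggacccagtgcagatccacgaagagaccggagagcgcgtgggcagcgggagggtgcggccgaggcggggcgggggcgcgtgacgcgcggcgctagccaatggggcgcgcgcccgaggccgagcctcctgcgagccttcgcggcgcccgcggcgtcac
Tsc22d3, chrX:140600523-140600772, minus strand, one of its 3 starts: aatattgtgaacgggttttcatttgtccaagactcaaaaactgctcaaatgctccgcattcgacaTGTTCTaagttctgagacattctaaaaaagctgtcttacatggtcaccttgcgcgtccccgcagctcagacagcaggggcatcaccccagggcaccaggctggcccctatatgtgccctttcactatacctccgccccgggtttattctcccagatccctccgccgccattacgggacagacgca

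The Fkbp5 stretch held 1 E-box, whose first base lay 169 bases before the start, and the Klf15 stretch held 2, at 228 and 172 bases. The Tsc22d3 stretch held 1 receptor site, at 185 bases, and the Arrdc2 stretch held neither motif. Windows were read for 8 of the 10 genes, 10 windows in all, of which 1 held a receptor site, against 16.1% of 32851 mouse windows of the same length. Of the 10 windows, 2 held an E-box, against 6.02% of all windows. The full element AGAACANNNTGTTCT was in none of the 10 windows and in 0.00913% of all windows, and with up to 1 mismatch on each side in none of the 10 and in 0.843% of all. These matches describe letters in a short window, and say nothing of sites farther away.

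**Figure D1:**
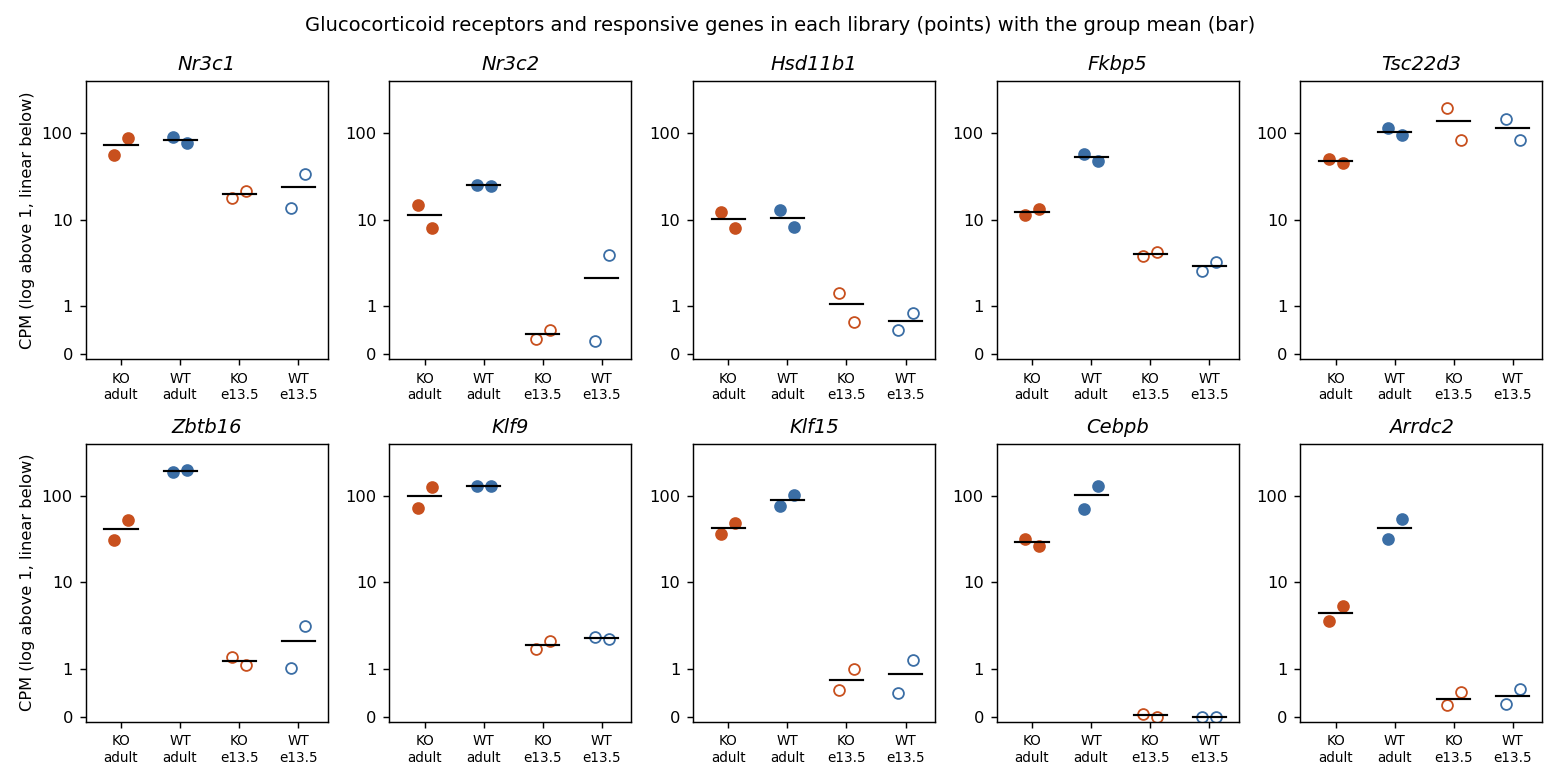
Each panel plots 1 gene in CPM (logarithmic above 1, linear below), with a point for each library and a bar for the mean of a group, KO in orange and WT in blue, adults filled and e13.5 open. In 9 of the 10 panels all 4 adult points lie above all 4 e13.5 points, Tsc22d3 being the exception, and in 8 panels both KO adult points lie below both WT adult points.

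Nr3c1 encodes the glucocorticoid receptor (ENSMUSG00000024431, chromosome 18, 39410545 to 39519421, GRCm38 as all positions here). It stood at 56.5 and 88.7 CPM in KO adults, 90.7 and 77.6 CPM in WT adults, 17.6 and 21.5 CPM in KO e13.5 and 13.7 and 33.4 CPM in WT e13.5. Genotypes overlapped at both ages, while every adult library lay above every embryonic one. The receptor rose with age by 1.87 ± 0.36 on the log2 scale (SE; edgeR, adjusted p = 0.00181). The log2 difference between KO and WT was -0.21 ± 0.50 in adults and -0.27 ± 0.50 at e13.5 (edgeR, adjusted p = 1 at e13.5).

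Nr3c2 encodes the mineralocorticoid receptor (ENSMUSG00000031618, chromosome 8, 76899442 to 77245012). It stood at 14.7 and 8.09 CPM in KO adults, 25.4 and 24.7 CPM in WT adults, 0.313 and 0.514 CPM in KO e13.5 and 0.277 and 3.93 CPM in WT e13.5. KO adult libraries lay below both WT adult libraries, and at e13.5 WT library 2 alone stood apart, with 114 counts against 6 in WT library 1. Nr3c2 rose with age by 4.14 ± 0.71 (edgeR, adjusted p = 0.000858), or by 5.59 without WT e13.5 library 2. The e13.5 genotype difference of -2.31 ± 0.98 had an unadjusted p of 0.0409 and did not pass (edgeR, adjusted p = 1), and it turned to 0.62 ± 0.76 without WT e13.5 library 2. A short stretch of its exons, 3.82%, is shared with Gm10649 on the opposite strand, which had at most 2 counts in a library.

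Per kilobase of annotated exon, the glucocorticoid receptor was the more abundant of the pair in every library. The ratio of Nr3c1 to Nr3c2 was 3.24 and 9.24 in KO adults, 3.01 and 2.64 in WT adults, 47.4 and 35.2 in KO e13.5 and 41.7 and 7.16 in WT e13.5. The ratio was thus highest in both KO e13.5 libraries and WT e13.5 library 1, with WT e13.5 library 2 within the range of the adults.

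Hsd11b1 encodes the enzyme of the endoplasmic reticulum that turns inactive 11-dehydrocorticosterone back into corticosterone (ENSMUSG00000016194, chromosome 1, 193221634 to 193264075). It stood at 12.4 and 7.95 CPM in KO adults, 12.9 and 8.13 CPM in WT adults, 1.44 and 0.673 CPM in KO e13.5 and 0.507 and 0.861 CPM in WT e13.5. The genotypes overlapped at both ages, and in adults library 1 was the higher in each. Hsd11b1 rose with age by 3.60 ± 0.45 (edgeR, adjusted p = 0.000152). The KO minus WT difference was -0.05 ± 0.57 in adults and 0.59 ± 0.62 at e13.5 (edgeR, adjusted p = 1 at e13.5).

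Hsd11b1 is also made by fibroblasts and liver. In adults the fibroblast markers, like the enzyme, were higher in library 1 of each genotype, with 2060 and 1267 CPM in KO and 1609 and 895 CPM in WT summed over 10 markers, none of them at 0. Endothelial, macrophage and adipocyte sums were also higher in library 1 of each adult genotype. Of the 8 adipocyte markers, however, 4 (Adipoq, Lep, Retn and Ucp1) were at 0 in all adult libraries. At e13.5 the order in KO was opposite, with fibroblast sums of 851 and 3887 CPM beside 1.44 and 0.673 CPM of Hsd11b1. In WT e13.5 the order was the same, with 1294 and 3927 CPM beside 0.507 and 0.861 CPM. These Hsd11b1 values rest on 23 and 17 counts in KO and 11 and 25 in WT. In adults the sum of the 9 hepatocyte markers was higher in library 2 of each genotype, with 3.95 and 90.2 CPM in KO and 2.21 and 62.9 CPM in WT. The part of fibroblasts in the Hsd11b1 level was not tested. H6pd, which supplies the enzyme with NADPH, rose with age by 3.75 ± 0.41 (edgeR, adjusted p = 6.58e-05). Hsd11b2, which inactivates corticosterone in aldosterone target tissue, reached at most 1.03 CPM in a library and was not tested. The 5α-reductase gene Srd5a1 fell by 2.59 ± 0.41 and the steroid exporter gene Abcb1b rose by 2.68 ± 0.43 with age (edgeR, adjusted p = 0.000597 and 0.000598). The exporter gene Abcb1a was at 28.5 and 20.5 CPM in KO adults and 37.1 and 27.3 CPM in WT adults. At e13.5 it had 2 and 5 counts in KO and 2 and 5 in WT. Abcb1a passed the filter on low counts only through the adult libraries, so no test of its age difference is given.

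Fkbp5 encodes FKBP51, a co-chaperone that lowers the affinity of the Hsp90-bound receptor for its ligand and whose gene the receptor itself induces (ENSMUSG00000024222, chromosome 17, 28399094 to 28517527). It stood at 11.3 and 13.4 CPM in KO adults, 57.9 and 47.9 CPM in WT adults, 3.75 and 4.19 CPM in KO e13.5 and 2.53 and 3.27 CPM in WT e13.5. The groups did not overlap at either age, with KO below WT in adults and above it at e13.5. In adults the KO mean was 23.3% of the WT mean, a log2 difference of -2.10 ± 0.43. At e13.5 the difference was 0.45 ± 0.42 and did not pass (edgeR, adjusted p = 1). With age Fkbp5 rose by 2.91 ± 0.31 (edgeR, adjusted p = 6.58e-05), by 1.63 ± 0.43 within KO and 4.18 ± 0.47 within WT, the last 2 values being descriptions because they hold the adult libraries that led to the set.

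Tsc22d3 encodes GILZ, a leucine zipper protein that carries much of the anti-inflammatory action of glucocorticoids (ENSMUSG00000031431, chromosome X, 140539528 to 140600659). It stood at 50.6 and 45.4 CPM in KO adults, 113.5 and 93.9 CPM in WT adults, 195 and 82.7 CPM in KO e13.5 and 145 and 83.2 CPM in WT e13.5. It was the only one of the 10 genes whose adult and embryonic libraries overlapped. KO adult libraries lay below all other libraries, with a mean 46.3% of the WT adult mean and a log2 difference of -1.11 ± 0.51. The age difference was -0.84 ± 0.36 and missed the threshold (edgeR, adjusted p = 0.0671), and it passed in 7 of the alternative analyses, among them without KO e13.5 library 2 (-1.08, edgeR, adjusted p = 0.0199) or WT e13.5 library 2 (-1.02, edgeR, adjusted p = 0.0335). Within KO it was -1.53 ± 0.51, or -0.77 and -2.03 without KO e13.5 library 1 and 2 in turn. Within WT it was -0.14 ± 0.50, or 0.46 and -0.47 without WT e13.5 library 1 and 2 in turn, and 0.01 without WT adult library 2.

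Zbtb16 encodes PLZF, a zinc finger repressor that is among the genes most strongly induced by glucocorticoids in many cell types (ENSMUSG00000066687, chromosome 9, 48654297 to 48836222). It stood at 30.6 and 52.1 CPM in KO adults, 188 and 199 CPM in WT adults, 1.38 and 1.11 CPM in KO e13.5 and 1.01 and 3.13 CPM in WT e13.5. Adult genotypes were far apart, with the KO mean at 21.4% of WT and a log2 difference of -2.23 ± 0.55, whereas those at e13.5 overlapped. Zbtb16 rose with age by 5.79 ± 0.47 (edgeR, adjusted p = 1.63e-05). The e13.5 genotype difference was -0.76 ± 0.58 (edgeR, adjusted p = 1).

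Klf9 and Klf15 encode zinc finger factors of the Krüppel-like family. Klf9, a repressor that answers several hormones, stood at 71.9 and 125.3 CPM in KO adults, 131 and 130.6 CPM in WT adults, 1.69 and 2.10 CPM in KO e13.5 and 2.30 and 2.20 CPM in WT e13.5 (ENSMUSG00000033863, chromosome 19, 23141226 to 23168134). KO libraries lay below WT libraries at both ages, though KO adult library 2 was close to WT, and the adult difference was -0.41 ± 0.42, or -0.87 without KO adult library 2 and -0.06 without KO adult library 1. At e13.5 it was -0.25 ± 0.44 (edgeR, adjusted p = 1), and the rise with age was 5.77 ± 0.36 (edgeR, adjusted p = 7.89e-06).

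Klf15, which controls amino acid and lipid use and restrains hypertrophy in heart, stood at 36.6 and 49.0 CPM in KO adults, 76.9 and 102 CPM in WT adults, 0.563 and 0.989 CPM in KO e13.5 and 0.507 and 1.27 CPM in WT e13.5 (ENSMUSG00000030087, chromosome 6, 90462576 to 90475238). The adult genotypes did not overlap, with KO at 47.9% of WT and a log2 difference of -1.06 ± 0.50, and those at e13.5 overlapped. Klf15 rose with age by 6.19 ± 0.45 (edgeR, adjusted p = 1.23e-05). Among the 15 genes of branched-chain amino acid and proline breakdown, some of which Klf15 is known to control, 11 rose with age, 1 fell and 3 did not pass. Over all genes tested, 27.0% rose and 32.6% fell. The 1 that fell, Bcat1, passed the filter on low counts only through the e13.5 libraries. In adults KO libraries lay below WT in 1 of the 15, Prodh, and above in 3, Bckdha, Bckdk and Auh, these 3 named after their values were seen. Over all genes tested, KO lay below WT in 14.5%, and the libraries did not overlap in either direction in 27.9%. The proline dehydrogenase gene Prodh was at 23.7 and 25.4 CPM in KO adults against 42.2 and 58.2 CPM in WT adults, and rose with age by 2.57 ± 0.36 (edgeR, adjusted p = 0.000288). The median adult difference between KO and WT over the 15 was -0.09.

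Cebpb encodes a bZIP factor of acute phase and fat cell programmes, which in adult heart falls during exercise (ENSMUSG00000056501, chromosome 2, 167688915 to 167690418). It stood at 32.1 and 26.4 CPM in KO adults and at 71.0 and 131 CPM in WT adults, a log2 difference of -1.79 ± 0.54 with no overlap. At e13.5 it had 1 count in KO library 1 and 0 counts in the other 3 libraries, so no genotype difference is given there. Over both genotypes the adult level was 5958 times the e13.5 level, a ratio that rests on that 1 count and whose 95% counting interval ran from 1069 to 235371. Cebpb passed the filter on low counts only through the adult libraries, so no test of its age difference is given. Against a floor of 3 counts over both WT e13.5 libraries, WT adults were at least 1668-fold higher. Cebpb shares 20.7% of its exon length with Tmem189 on the opposite strand, which had 39 to 101 counts in the e13.5 libraries. The strand setting of the counting is not stated in the labels.

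Arrdc2 encodes an arrestin-domain protein, a class that links membrane receptors to ubiquitin ligases (ENSMUSG00000002910, chromosome 8, 70835129 to 70839720). It stood at 3.56 and 5.30 CPM in KO adults, 31.4 and 54.3 CPM in WT adults, 0.250 and 0.514 CPM in KO e13.5 and 0.277 and 0.585 CPM in WT e13.5. The KO adult mean was 10.3% of the WT adult mean, a log2 difference of -3.27 ± 0.58 and the widest gap among the 10 genes, while the genotypes at e13.5 were interleaved. Arrdc2 rose with age by 5.03 ± 0.47 (edgeR, adjusted p = 2.88e-05). The e13.5 genotype difference was -0.15 ± 0.65 (edgeR, adjusted p = 1). Its relative Arrdc3 had an adult difference of -0.60 ± 0.86 and Arrdc4 one of 0.63 ± 0.79.

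**Figure D2:**
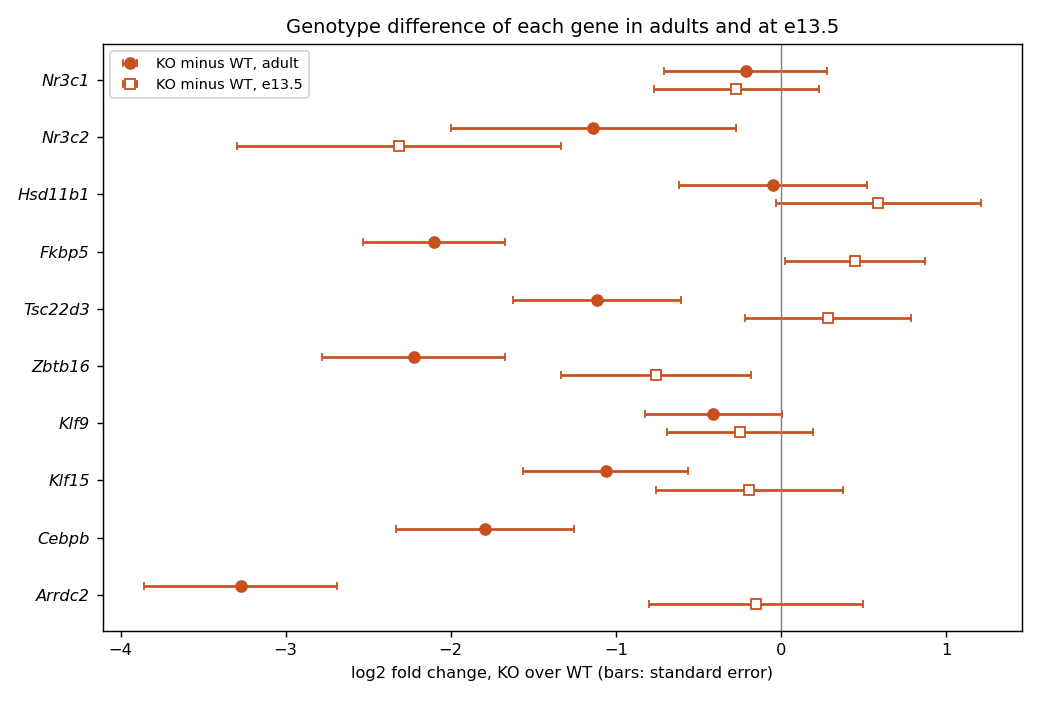
Points give the log2 fold change of KO over WT for each gene, filled circles in adults and open squares at e13.5, and bars the standard error; Cebpb has no e13.5 point because it had 1 count there. All 10 adult points lie below 0, from -3.27 for Arrdc2 to -0.05 for Hsd11b1, and the e13.5 points lie on both sides.

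In adults, the log2 difference between KO and WT was below 0 for all 10 genes, against 46.3% of all genes tested, with a median of -1.12 against 0.01 over all genes. In 8 of the 10 both KO libraries lay below both WT libraries, against 14.5% of genes tested, and Nr3c1 and Hsd11b1 were the overlapping pair. These counts describe a contrast that was used to choose the set and support nothing by themselves. The differences were widest for Arrdc2, Zbtb16, Fkbp5 and Cebpb, and those of the receptor gene Nr3c2 (-1.14), Tsc22d3 (-1.11) and Klf15 (-1.06) were close to each other. Nr3c1, Hsd11b1 and the responsive gene Klf9 lay within 1 standard error of 0. Leaving out any single library, the differences of Arrdc2, Zbtb16, Fkbp5 and Cebpb kept their sign, with ranges of -3.61 to -2.84, -2.66 to -1.89, -2.24 to -1.95 and -2.16 to -1.29. Nr3c1 reached 0.07 without KO adult library 1 and Hsd11b1 0.33 without WT adult library 1.

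At e13.5, Cebpb had too few counts to be called, and 0 of the other 9 genes passed in the comparison of KO with WT (edgeR), against 0.0722% of genes tested. KO and WT libraries did not overlap in 2 of the 9, Fkbp5 with KO above and Klf9 with KO below, against 15.4% of genes tested. 1 gene, Nr3c2, had an unadjusted p below 0.05, and DESeq2 called 0. The 9 log2 differences ran from -2.31 to 0.59, with a median of -0.19 against -0.07 over all genes. The smallest standard error among the 9 was 0.42 and the largest 0.98, so moderate differences were not detectable with 2 libraries a group. The difference of the genotype effect between ages (adult minus e13.5) is given without a test because it holds the adult contrast. It was -3.12 ± 0.86 for Arrdc2, -2.55 ± 0.60 for Fkbp5, -1.47 ± 0.79 for Zbtb16, -1.40 ± 0.71 for Tsc22d3, -0.87 ± 0.76 for Klf15, -0.64 ± 0.84 for Hsd11b1 and -0.16 ± 0.61 for Klf9. The receptor genes were at 0.06 ± 0.70 (Nr3c1) and 1.18 ± 1.28 (Nr3c2), both of them, like Hsd11b1 and Klf9, within 1 standard error of 0. Leaving out single libraries, the difference of the genotype effect ran from -3.81 to -2.49 for Arrdc2 and -2.78 to -2.41 for Fkbp5. It ran from -2.54 to -1.03 for Zbtb16 and -2.03 to -0.64 for Tsc22d3. Without WT e13.5 library 2, Nr3c1 turned to -0.75 and Nr3c2 to -1.78.

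With age, averaged over genotypes, 8 of the 9 genes other than Cebpb rose and 0 fell (edgeR), against 27.0% of genes tested that rose and 32.6% that fell. These 9 would have passed the filter on low counts by their e13.5 libraries alone. Their median log2 change was 4.14, against -0.21 over all genes tested. All 4 adult libraries lay above all 4 e13.5 libraries in the 8 that rose, against 26.9% of genes tested. Changes ran from 1.87 for Nr3c1 to 6.19 for Klf15 among the 8. All 10 genes were above 1 CPM in each adult library, whereas at e13.5 it was 6 and 5 of them in the KO libraries and 5 and 7 in the WT libraries.

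Marker levels of several cell types differed between the ages as well. With age, 6 of 12 cardiomyocyte markers rose and 1 fell, 5 of 10 fibroblast markers fell and 3 rose, 6 of 9 tested macrophage and leukocyte markers rose, and 8 of 8 erythroid markers fell, with Hbb-y and Hba-x at 0 in all adult libraries. Over all genes tested, 27.0% rose and 32.6% fell. Such counts cannot tell the number of cells from the RNA per cell, and the part of these cells in the rise of the 8 genes was not tested.

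**Figure D3:**
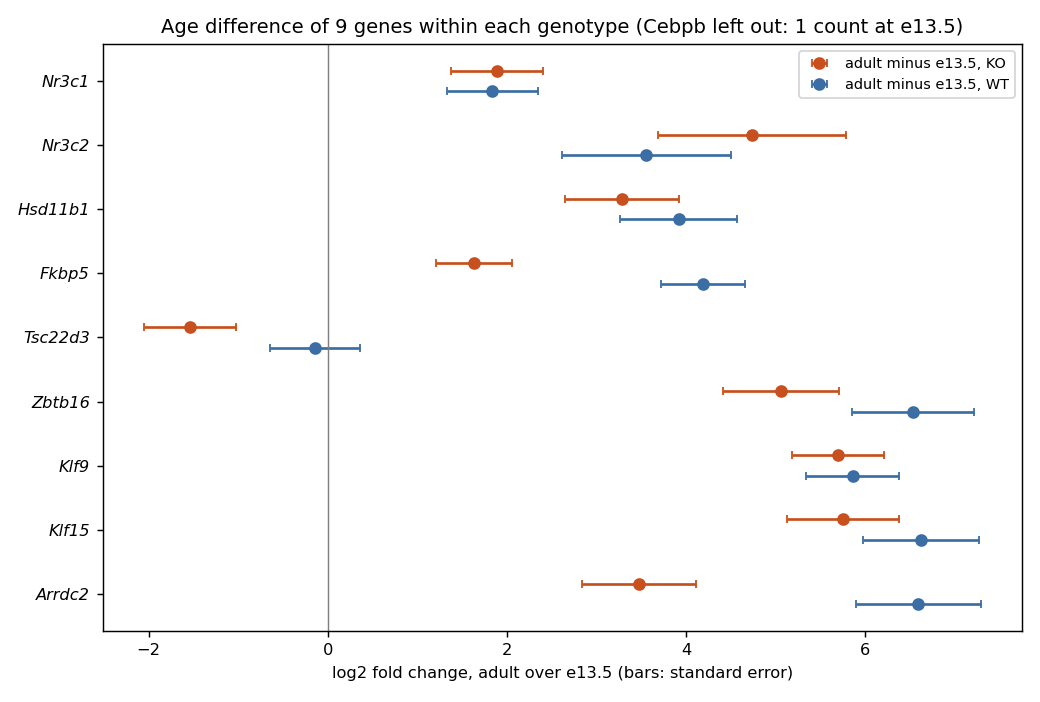
Points give the log2 fold change of adult over e13.5 within KO (orange) and within WT (blue), and bars the standard error, for the 9 genes other than Cebpb. Tsc22d3 alone lies below 0 in both, and the KO point lies left of the WT point most widely for Arrdc2 (3.47 and 6.59) and Fkbp5 (1.63 and 4.18).

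Levels of different genes were compared as CPM per kilobase of annotated exon. In KO adults the top 3 were Klf9 (14.9 and 26.0), Cebpb (21.3 and 17.5) and Klf15 (13.1 and 17.6), each overlapping the next. Tsc22d3 (11.7 and 10.5), Nr3c1 (7.35 and 11.5) and Zbtb16 (5.80 and 9.86) formed a second overlapping run, and Hsd11b1, Nr3c2, Arrdc2 and Fkbp5 lay at or below 2.91. The KO order thus had 3 runs of genes within which neighbours did not differ beyond the spread of their libraries. In WT adults the order ran from Cebpb (47.2 and 87.4) through Zbtb16 (35.5 and 37.7) and Klf15 (27.6 and 36.6), which overlapped each other, to Klf9 (27.3 and 27.1) and Tsc22d3 (26.2 and 21.6). Arrdc2 (9.73 and 16.8) and Nr3c1 (11.8 and 10.1) overlapped, and Fkbp5 (6.11 and 5.06), Nr3c2 (3.92 and 3.82) and Hsd11b1 (3.03 and 1.91) followed. Zbtb16 stood beside the receptor gene in KO adults and well above it in WT adults. At e13.5 Tsc22d3 stood far above the other 9, with 45.0 and 19.0 in KO and 33.4 and 19.2 in WT, and Nr3c1 came next with 2.29 and 2.80 in KO and 1.78 and 4.34 in WT.

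A list of 25 other genes known to respond to glucocorticoids was set beside the 10. With age 15 rose, 7 fell and 3 did not pass (edgeR), against 27.0% of genes tested that rose and 32.6% that fell. The 15 include Lcn2, which had 2 and 0 counts in KO e13.5 and 9 and 9 in WT e13.5. Lcn2 passed the filter on low counts only through the adult libraries. The median of the list was 1.71, against -0.21 over all genes tested. Ptgds, which makes prostaglandin D2 in heart, rose by 5.87 ± 0.44, the glutamine synthetase gene Glul by 3.73 ± 0.42, the kinase gene Map3k6 by 3.32 ± 0.38 and Pdk4, which restrains glucose oxidation, by 4.23 ± 0.51 (edgeR, adjusted p = 1.29e-05, 7.95e-05, 8.82e-05 and 0.000122). At e13.5, 0 of the 25 passed between KO and WT, 1 had an unadjusted p below 0.05 and DESeq2 called 0.

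In adults the genes of this list lay on both sides of 0. KO and WT libraries did not overlap in 16 of the 25, against 27.9% of genes tested, with KO below in 11 and above in 5, and the median log2 difference was -0.24. In edgeR 0 of the 25 passed, against 0.0481% of genes tested, with 5 at an unadjusted p below 0.05 and 1 called by DESeq2. The following were picked after their values were seen, for their width. Fam107a was at 2.31 and 1.66 CPM in KO adults against 13.4 and 10.1 CPM in WT adults. The kinase subunit gene Pik3r1 was at 73.5 and 129.6 CPM in KO adults against 252.8 and 289.7 CPM in WT adults. In the other direction, Pdk4 was at 639 and 902 CPM in KO adults against 201 and 232 CPM in WT adults. The lipoprotein lipase inhibitor gene Angptl4 was at 26.2 and 17.6 CPM in KO adults against 3.38 and 3.99 CPM in WT adults. Pdk4 and Angptl4 are also known targets of the fatty acid sensors of the PPAR family.

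**Figure D4:**
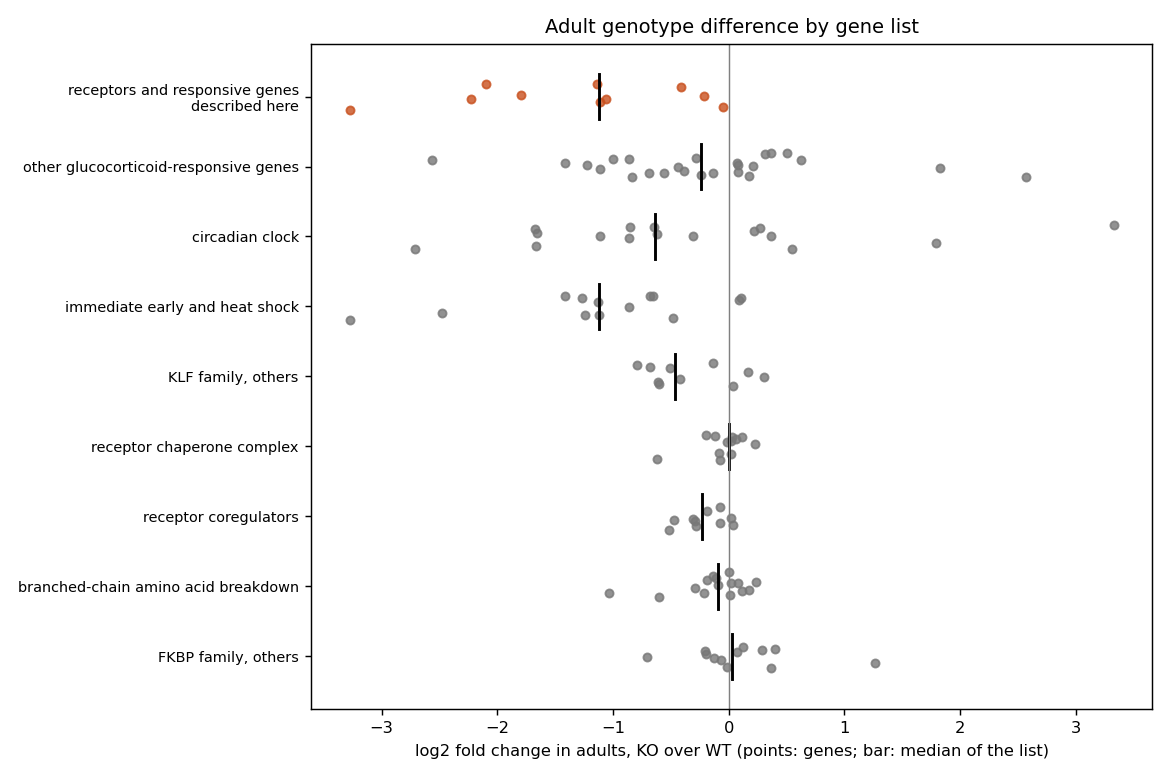
Each point is the adult log2 fold change of KO over WT for 1 tested gene, grouped by list, and the black bar is the median of the list. The medians are -1.12 for the 10 genes described here, -0.24 for 25 other responsive genes, -0.64 for clock genes, -1.12 for immediate early and heat shock genes and 0.00 for the receptor chaperone complex; clock and responsive genes lie on both sides of 0.

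The proteins around the receptor were covered by 2 lists. The 12 genes of the chaperone complex had a median adult difference of 0.00, with KO libraries below WT in 0 and above in 0. The 10 coactivators and corepressors had one of -0.23, with 4 of 10 below. Over all genes tested, KO lay below WT in 14.5%, and the libraries did not overlap in either direction in 27.9%. Hsp90ab1, the constitutive Hsp90, was at 1268 and 1120 CPM in KO adults against 1457 and 1053 CPM in WT adults. Fkbp4, whose product FKBP52 favours the active receptor, was at 529 and 459 CPM in KO adults against 509 and 489 CPM in WT adults. With age 7 of the 12 chaperone genes fell and 1, Bag1, rose (4.65 ± 0.39, edgeR, adjusted p = 1.9e-05), while 8 of 10 coregulators rose. Over all genes tested, 27.0% rose and 32.6% fell.

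Relatives of the responsive genes were counted in the same way in adults. Of 12 other FKBP genes KO lay below WT in 1 and above in 1 (median 0.03), of 3 other TSC22 genes in 0 and 0, of 4 tested C/EBP genes below in 1, and of 4 tested arrestin-domain genes below in 1 and above in 1. The other KLF genes had 6 of 10 below, with a median of -0.46. Over all genes tested, KO lay below WT in 14.5%, and the libraries did not overlap in either direction in 27.9%. In these lists 0 genes passed in adults (edgeR), against 0.0481% of genes tested. There were 0 at an unadjusted p below 0.05 and 0 called by DESeq2, and no list was tested against another. With age, 0 of 12 FKBP genes rose and 6 fell, and 4 of 10 KLF genes rose and 4 fell. Among those that fell, Fkbp1b and Klf5 passed the filter on low counts only through the e13.5 libraries. Over all genes tested, 27.0% rose and 32.6% fell. Cebpa was at 9.49 and 6.23 CPM in KO adults and 11.1 and 4.96 CPM in WT adults. At e13.5 it had 7 and 2 counts in KO and 9 and 5 in WT. Like Cebpb, it passed the filter on low counts only through the adult libraries, so no test of its age difference is given.

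Clock genes were set beside the responsive genes in adults. Of 16, KO libraries lay below WT in 9 and above in 2, against 14.5% of genes tested for below and 27.9% for either direction. Of the 16, 0 passed (edgeR), against 0.0481% of genes tested, with 6 at an unadjusted p below 0.05 and 2 called by DESeq2. The widest of them, picked after their values were seen, were Arntl and Per2. Arntl, the BMAL1 gene, was at 5.34 and 14.9 CPM in KO adults against 0.699 and 1.31 CPM in WT adults, and its antiphase partner Per2 at 9.62 and 9.74 CPM in KO adults against 63.6 and 63.4 CPM in WT adults. Of 13 immediate early and heat shock genes, both KO libraries lay below WT in 8, against 14.5% of genes tested, and 0 passed (edgeR), with 4 at an unadjusted p below 0.05 and 1 called by DESeq2. The sum of these 13 genes was 765 and 1068 CPM in KO adults against 1896 and 1129 CPM in WT adults, WT library 1 standing apart. The part of the clock and of the early response in the adult differences of the glucocorticoid-responsive genes was not tested. In adults 9 of 10 fibroblast, 10 of 10 endothelial and 9 of 9 tested macrophage and leukocyte markers had a KO minus WT difference above 0. The same held for 7 of 9 smooth muscle and pericyte markers and 7 of 12 cardiomyocyte markers. Over all genes tested, 46.3% lay below 0. The sums overlapped for fibroblasts (2060 and 1267 CPM in KO, 1609 and 895 CPM in WT), endothelium (2238 and 1203 CPM in KO, 1359 and 1023 CPM in WT) and macrophages (490 and 272 CPM in KO, 305 and 186 CPM in WT), and no marker of these lists was at 0 in adults. Their part was not tested.

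The genes whose profile over the 8 libraries was most like that of Fkbp5 were found by the root mean square difference of centred log2 CPM, among 10747 tested genes with a mean of at least 5 CPM. Genes with no proper name are counted in the 10747 but were passed over in the ranking, also for Arrdc2. The closest to Fkbp5 were Lonrf1 (0.40), Map3k6 (0.44), Per3 (0.46), Pik3r1 (0.48) and Wipf3 (0.50). Map3k6 and Pik3r1 are on the list of responsive genes and Per3 on that of the clock. Per3 was at 16.7 and 22.7 CPM in KO adults, 52.1 and 72.2 CPM in WT adults, 4.19 and 4.12 CPM in KO e13.5 and 5.53 and 7.44 CPM in WT e13.5. For Arrdc2 the closest were Rab6b (0.68), Rhobtb1 (0.68), Gbp6 (0.70), Ccdc85a (0.72) and Rnf144b (0.74). Rhobtb1 was at 69.4 and 87.8 CPM in KO adults, 270.9 and 330.0 CPM in WT adults, 8.25 and 11.0 CPM in KO e13.5 and 10.05 and 9.09 CPM in WT e13.5. Among the 10 genes themselves, Klf9 and Klf15 were the closest pair (0.47), followed by Zbtb16 and Klf15 (0.56), and Fkbp5 and Arrdc2 differed by 1.11.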

How the data were processed

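RNA of 8 libraries was measured after amplification of 200 ng of total RNA with Smart-seq2, per the labels' protocols. The authors deposited 1 table of expected counts, made with RSEM on mm10 per the submitters' processing notes. Its values were whole numbers with differing totals and were used unscaled, although the table's name speaks of normalised input. Neither labels nor notes state the aligner, the versions, the annotation or the strand setting. Symbols, positions and merged exon lengths came from GENCODE vM21, in which 51633 of 51826 identifiers matched. Counts were fitted in R 4.3.3 with edgeR 4.0.16 (filterByExpr, TMM factors of 0.770 to 1.44, quasi-likelihood test, 4 group means, 4 residual degrees of freedom), two-sided, with Benjamini-Hochberg adjustment over 16623 genes and a threshold of 0.05. The fit was tested on simulated data. Values after ± are standard errors of log2 fold changes.

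The 10 genes and the gene lists were chosen with earlier results of these data known. All 10 were named. Of each list, up to 4 genes of smallest p at e13.5 or with age, the 2 of highest mean CPM, and any of a list of up to 5 could be named, and others are said to be picked after their values were seen. Copies were searched with BLAST 2.17.0 (at least 95% identity over at least 50% of a transcript), with no hit for the 10. Promoters are from RefSeq (GRCm38.p6), read for 8 of the 10. Alternatives were no filter, upper quartile scaling, median-of-ratios scaling, a filter of 5 CPM in 2 libraries, DESeq2 1.42.0, robust quasi-likelihood, 1 age alone, the replicate number as a block, and each library left out.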

Additional observations from a re-analysis of the deposited data

Results flagged for a closer look

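Fkbp5 was singled out because the KO libraries lay below both WT libraries in adults and above both at e13.5. The log2 difference of the genotype effect, adult minus e13.5, was -2.55, and this difference was not tested because the adult contrast led to the choice of the gene. The same pattern was seen in Klf13 and Ciart of the KLF and clock lists, which were named after their values were seen. Over all genes tested, KO and WT libraries did not overlap in 27.9% in adults and in 15.4% at e13.5. The share with opposite directions at the 2 ages was not counted, so the pattern is not shown to be particular to Fkbp5. With groups of 2 libraries no library could be checked for standing apart by a rule on its own group.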

How the results depend on the processing

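Alternative analyses numbered 17, of which 16 covered the age difference and 8 left out 1 library each. In those that kept all libraries, 0 of the 10 genes were called at e13.5. The 8 genes other than Cebpb and Tsc22d3 stayed called with age in them, and their age differences stayed above 0 without any single library. Cebpb is left out of the age calls because it passed the filter only through adult libraries. The Tsc22d3 difference of -0.84 passed with the stricter filter (-0.92, edgeR, adjusted p = 0.0472) and upper quartile scaling (-1.02, edgeR, adjusted p = 0.0352). It also passed with DESeq2 (-0.92, adjusted p = 0.0408). The difference was -1.08 without KO e13.5 replicate 2 and -1.02 without WT e13.5 replicate 2. Without single libraries, uncalled e13.5 differences changed sign between -0.78 and 0.52 for Arrdc2, -0.66 and 0.66 for Klf15, -1.19 and 0.31 for Zbtb16, -0.48 and 0.90 for Tsc22d3, -0.042 and 1.06 for Hsd11b1, -0.63 and 0.54 for Nr3c1 and -3.06 and 0.62 for Nr3c2, in each case without KO e13.5 replicate 1 or WT e13.5 replicate 2, and the cause was not tested.

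The replicate number was also used as a block. Deviations of same-numbered libraries from their group means correlated across genes with r = 0.552 between the genotypes at e13.5 and 0.307 in adults. Across ages r was 0.129 and 0.164 for KO adults and -0.022 and -0.032 for WT adults. No label says what a number shares and each group has 2 libraries, so the numbers are not known to pair the samples. With the block over all libraries or within each age, the 9 genes other than Cebpb were called with age and 0 genes at e13.5. Tsc22d3 then had -0.75 (edgeR, adjusted p = 0.0356) and -1.16 (edgeR, adjusted p = 0.00429). Adult differences were negative in 10 of 10 genes, or 9 without KO adult replicate 1, KO adult replicate 2 or WT adult replicate 1. Of the 25 other responsive genes 17 to 24 were called with age, against 22.

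Over all genes tested, 10 were higher and 2 lower in KO at e13.5, against 32 and 55 with no filter, 16 and 14 with DESeq2, 5 and 0 with e13.5 libraries alone, and 10 and 25 without WT e13.5 replicate 1. In adults 7 were higher and 1 lower in KO, against 29 and 35 with no filter, 23 and 31 with DESeq2, 10 and 3 with median-of-ratios scaling, 9 and 3 with upper quartile scaling and 0 and 2 with adult libraries alone, and 0 and 0 without WT adult replicate 1. Upper quartile scaling moved the median age difference of all genes to -0.37, against -0.21, and median-of-ratios scaling moved the e13.5 genotype median to 0.05, against -0.07.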
